A study of Mus musculus with 2 samples.

Results

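The levels of 8 transcription factors of the endoderm lineage were read in single cells of the mouse yolk sac: Hnf4a, Foxa1, Foxa2, Foxa3, Gata4, Gata6, Sox17 and Sox7. They were taken by gene symbol and make up 8 of the 30970 gene rows, of which 19816 had at least 1 count. All yolk sacs came from E8.75 embryos that carried 1 copy of Ttr-Cre and 1 copy of R26lsl-rtTA-EGFP, so there was a single genotype and no treated group. Ttr-Cre drives Cre recombinase from the promoter of Ttr, a gene of visceral endoderm, and lsl marks a stop cassette that Cre removes. Cells of 3 yolk sac samples were labelled with CellPlex oligonucleotides, pooled and captured with the 10x droplet method, which counts unique molecular identifiers (UMIs) at the 3′ end of each transcript. They are called tagged samples 1, 2 and 3 here, and each is 1 replicate.

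Endoderm of the yolk sac lines its outer face, where it takes up maternal nutrients and secretes serum proteins before the liver does. Gata6, Gata4, Sox17, Sox7 and the Foxa factors act from the first steps of endoderm formation, and Hnf4a is the nuclear receptor that visceral endoderm needs for its serum protein genes. The GATA and SOX factors also work outside endoderm: Gata4 and Gata6 in heart and lateral mesoderm, Sox7 and Sox17 in vessel walls.

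The 3 tagged samples held 1817 cells and 88013181 gene UMIs in all, with median depths of 45539 to 47786 UMIs per cell. Cells with 500 or more genes and at most 10% mitochondrial UMIs were sorted into classes by the share of their UMIs from marker genes other than the 8 factors. Endoderm (419 cells) needed 0.3% from Ttr, Apob and Apom, erythroid cells (629) 3% from 7 globins, endothelium (113) 0.04% from Cdh5, Ctla2a and Plvap, and mesoderm (197) 0.03% from Hand1, Vcan and Foxf1. At the edges of these gates the lowest share inside and the highest outside were 0.301% and 0.272% for endoderm, 3.02% and 2.99% for erythroid cells, 0.0418% and 0.0382% for endothelium, and 0.03003% and 0.02991% for mesoderm. Cells past 2 gates (45) were dropped, 159 cells with 3 or more UMIs of Cyp26a1, a retinoic acid-degrading enzyme, were kept apart, and 178 cells entered no class. A list of 10 visceral endoderm markers outside the gates, such as Afp and Rbp4, summed to between 19883 and 27796 CPM (the counts-per-million unit, over all gene UMIs of a class in a tagged sample) in endoderm and between 337 and 657 in the other 3 classes. A list of 10 embryonic gut markers summed to between 33.4 and 38.5 in endoderm, with Shh and Nkx2-1 at 0 there and in every other class. That list summed to 107 to 113 in mesoderm, 29.1 to 70.6 in endothelium and 1.77 to 2.78 in erythroid cells, so it does not set the endoderm apart. Each tagged sample held cells with Xist and cells with Y-linked transcripts, Xist cells being 38.7% to 59.4% of those called. The number of embryos behind each tag is therefore not settled, and p-values measure the spread between tagged samples.

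Hnf4a (chromosome 2, 163506808-163572910, GRCm38, plus strand) was high in endoderm and low in every other class. Its level in endoderm was 82.9, 65.3 and 70.5 CPM in tagged samples 1, 2 and 3 (72.9 ± 9.06, SD, n = 3). In mesoderm it was 0.910, 2.04 and 2.97, in endothelium 0.594, 0.735 and 2.53, and in erythroid cells 1.16, 1.77 and 1.01. All 3 endoderm values lay far above every other value, and the other 3 classes overlapped one another. The pooled level in endoderm was 35.7 times that in mesoderm (95% exact interval 21.2 to 65.4), 60.2 times that in endothelium (25.8 to 186) and 55.2 times that in erythroid cells (40.5 to 77.2). These intervals, and the others on pooled counts, cover counting error only. The fitted log2 difference was 5.39 against mesoderm (SE 0.23, edgeR adjusted p = 3.40e-09). An antisense gene, Hnf4aos, overlaps Hnf4a and had 35 UMIs in endoderm against 1657 for Hnf4a.

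Hnf4a can start at an upstream and at a downstream promoter, and 3′ counts do not tell them apart. RefSeq promoter windows (GRCm38.p6) of 250 bases before each start were found for 4 of the 8 factors, Hnf4a, Foxa1, Foxa2 and Foxa3, in 7 windows. The search covered 5 motifs on both strands. The forkhead motif TGTTTAC occurs in 3.17% of all 32851 promoters of that length in the table. The GATA motif AGATAA occurs in 9.99% of them, and the SOX motif CATTGT in 10.7%. For Hnf4a itself the motif was CAAAGTCCA, found in 0.384% of promoters. The core of the HNF1 site was searched as GTTAAT, found in 6.43%. The stretches below are shown because they carry matches to motifs of the families described here or of HNF1, with the matching letters in capitals. A GATA match lies 52 bases before the upstream Hnf4a start and runs into an annotated first exon, and 2 HNF1 cores lie 81 and 74 bases before the downstream start. One Foxa2 start, inside an intron of a longer Foxa2 transcript, has a GATA match 183 and an HNF1 core 176 bases before it. Foxa1 has a FOX match 141 bases before its start. A match is a string of letters and not a shown binding site.
Hnf4a upstream start, plus strand, chr2:163506793-163506822: gaagaatcaataAGATAAccgggcggggtg
Hnf4a downstream start, plus strand, chr2:163547017-163547143: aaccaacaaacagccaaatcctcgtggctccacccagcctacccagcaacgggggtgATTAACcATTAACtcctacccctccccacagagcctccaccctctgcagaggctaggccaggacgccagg
Foxa2 internal start, minus strand, chr2:148045578-148045704: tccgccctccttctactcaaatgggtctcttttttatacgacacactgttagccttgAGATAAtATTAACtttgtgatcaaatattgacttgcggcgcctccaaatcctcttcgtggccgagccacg
Foxa1, minus strand, chr12:57546189-57546309: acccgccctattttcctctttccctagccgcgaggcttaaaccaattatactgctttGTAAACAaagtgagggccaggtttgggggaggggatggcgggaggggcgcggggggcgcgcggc

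The 3 Foxa genes encode forkhead factors that can open closed chromatin in endoderm, and 2 of the 3 were well counted. Foxa2 (chromosome 2, 148042877-148046969, minus strand) stood at 28.5, 32.6 and 30.03 CPM in endoderm (30.4 ± 2.07, SD, n = 3). No value in another class passed 1.63. Foxa3 (chromosome 7, 19013284-19023538, minus strand) stood at 24.6, 29.5 and 28.1 in endoderm (27.4 ± 2.52, SD, n = 3). Outside endoderm Foxa3 had 1 UMI in mesoderm, 1 in endothelium and 18 in erythroid cells, against 648 in endoderm. Neither gene's endoderm values overlapped with those of another class. Pooled Foxa2 was 36.0 times higher in endoderm than in mesoderm (16.5 to 98.4) and 32.6 times higher than in endothelium (12.7 to 120). On the log2 scale its fitted difference from mesoderm was 5.34 (SE 0.32, edgeR adjusted p = 4.80e-08). Pooled Foxa3 was 195 times higher than in mesoderm (34.9 to 7722) and 49.2 times higher than in erythroid cells (30.9 to 83.5), the wide first interval resting on that 1 UMI. Foxa1 (chromosome 12, 57540628-57546916, minus strand) gave 5, 2 and 8 UMIs in endoderm, 1 in erythroid cells and 0 in mesoderm and endothelium. It was too low for any test. With the 0 set to 3 UMIs over the class, Foxa1 in endoderm was 1.51 times its level in mesoderm. That value is no bound, since the lower limit of the exact interval was 1.08. Of the 15 endoderm UMIs behind it, 3 came from 1 cell. Against endothelium the exact lower limit was 0.652, so no difference was detectable at this depth.

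**Figure D1:**
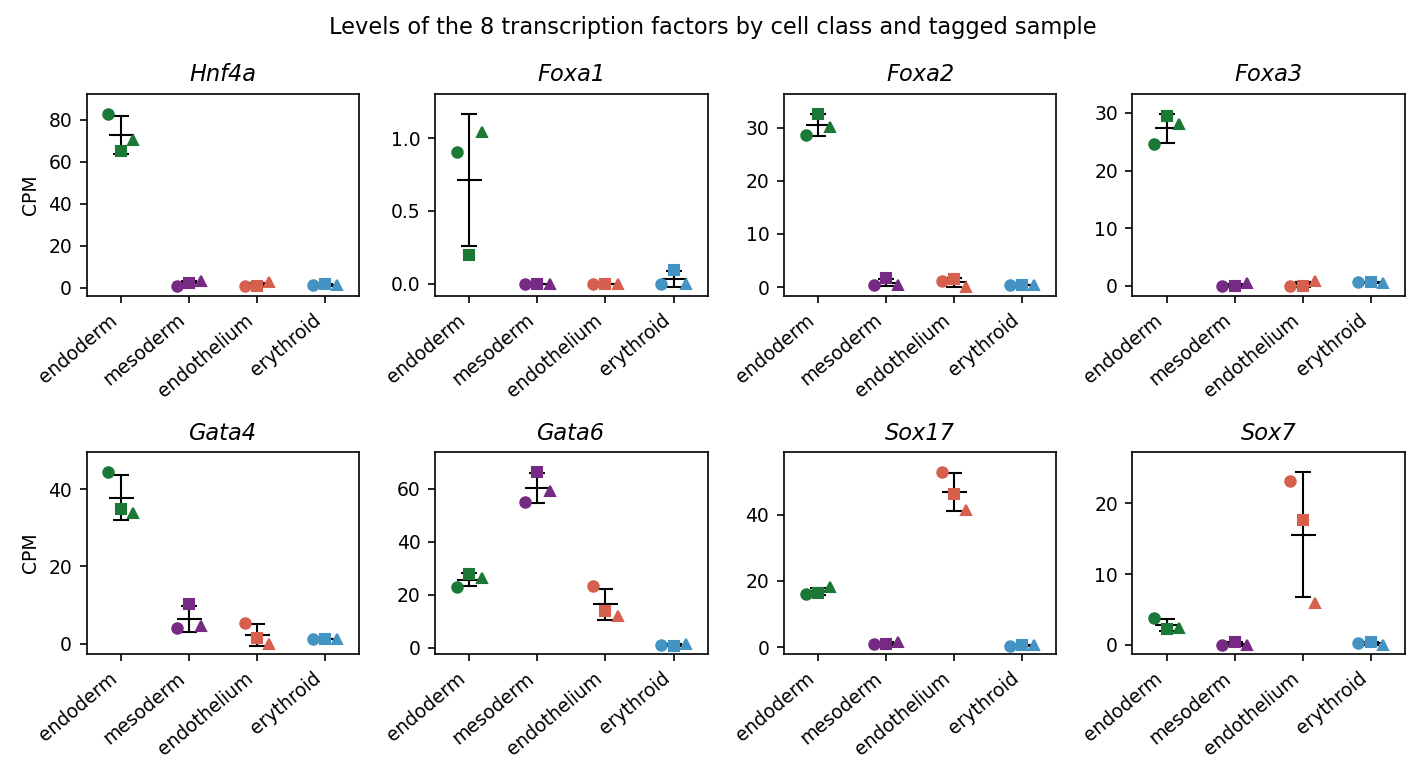
Level of each factor in CPM (y axis, a separate linear scale per gene) in the 4 cell classes; circles, squares and triangles are tagged samples 1, 2 and 3, and the black bars are the mean and SD of the 3. Hnf4a, Foxa2, Foxa3 and Gata4 are highest in endoderm, Gata6 in mesoderm (55.0 to 66.4), and Sox17 and Sox7 in endothelium.

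The pair of GATA zinc finger factors differed in where they were found outside endoderm. Gata4 (chromosome 14, 63198922-63271692, minus strand) was at 44.4, 35.01 and 33.8 CPM in endoderm (37.7 ± 5.82, SD, n = 3). In mesoderm it was at 4.09, 10.2 and 4.66, in endothelium at 5.34, 1.47 and 0, and in erythroid cells at 1.16, 1.31 and 1.25. Endoderm did not overlap with any class, while mesoderm and endothelium overlapped. The fitted log2 difference between endoderm and mesoderm was 2.77 (SE 0.25, edgeR adjusted p = 1.50e-06), a pooled ratio of 5.74 (4.26 to 7.93). Of the 45 mesoderm UMIs of Gata4, 10 came from 1 cell of tagged sample 2. That cell was among 4 mesoderm cells with 0.1% or more of their UMIs from the contractile genes Myl7, Tnnt2 and Actc1. Without those 4 cells Gata4 was at 4.16, 6.32 and 4.81 in mesoderm. In endothelium 5 of its 11 UMIs lay in 1 cell.

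Gata6 (chromosome 18, 11052064-11085635, plus strand) was the 1 factor with its highest level in mesoderm. There it was at 55.0, 66.4 and 59.4 CPM (60.2 ± 5.72, SD, n = 3), against 22.9, 27.7 and 26.2 in endoderm (25.6 ± 2.43). It was at 23.2, 14.0 and 11.8 in endothelium and at 1.16, 0.747 and 1.19 in erythroid cells. Mesoderm lay above all other classes with no overlap, whereas the endoderm and endothelium ranges overlapped and both lay above erythroid cells. The fitted log2 difference, endoderm minus mesoderm, was −0.99 (SE 0.13, edgeR adjusted p = 4.71e-05), and the pooled mesoderm level was 232% of the endoderm level (204 to 263). Against endothelium the difference was 0.71 (SE 0.23, edgeR adjusted p = 0.0162). That call was lost without tagged sample 2 (0.51), without tagged sample 3 (0.55) and with the gate thresholds doubled (0.51). Without the 4 contractile-gene cells Gata6 in mesoderm was 57.1 ± 2.59.

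Sox17 and Sox7, SOX factors of the F group, were both highest in endothelium. Sox17 (chromosome 1, 4490931-4497354, minus strand) was at 52.8, 46.3 and 41.3 CPM in endothelium (46.8 ± 5.80, SD, n = 3) and at 16.1, 16.4 and 18.1 in endoderm (16.9 ± 1.12). It was at 0.910, 0.814 and 1.70 in mesoderm and at 0.463, 0.560 and 0.655 in erythroid cells. None of the 4 ranges overlapped, so the order endothelium, endoderm, mesoderm, erythroid held in every tagged sample. The last step of that order rests on 2, 2 and 4 mesoderm UMIs. Its pooled ratio, mesoderm to erythroid, was 1.91 (0.723 to 4.57), an interval that includes 1. The fitted log2 difference was −1.38 for endoderm minus endothelium (SE 0.16, edgeR adjusted p = 5.41e-06) and 4.09 for endoderm minus mesoderm (SE 0.30, edgeR adjusted p = 2.51e-07). The endoderm level of Sox17 moved with the gates, from 14.2 with thresholds doubled to 18.4 with thresholds halved and 20.7 with the Cyp26a1 cells kept in.

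Sox7 (chromosome 14, 63943673-63950732, plus strand) was at 23.2, 17.6 and 5.89 CPM in endothelium (15.6 ± 8.82, SD, n = 3) and at 3.79, 2.28 and 2.35 in endoderm (2.81 ± 0.854). The endothelium values were spread widely, with 39, 24 and 7 UMIs, yet all lay above the endoderm values. Outside both classes it had 1 UMI in mesoderm and 5 in erythroid cells. Against mesoderm it was too low for the fit, with a pooled endoderm level 18.7 times higher (3.23 to 749.5). Endoderm minus endothelium gave a fitted log2 difference of −2.47 (SE 0.39, edgeR adjusted p = 0.000117), and the pooled endothelium level was 621% of the endoderm level (435 to 889). Pooled Sox7 was 16.9 times higher in endoderm than in erythroid cells (6.88 to 54.0), a ratio that rests on 5 erythroid UMIs. Sox18, their relative in vessel walls, had 0 UMIs in endoderm, and the list of 10 endothelial markers summed to 32.4 to 51.8 CPM there against 1758 to 1844 in endothelium.

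Of the 8 factors, 6 had enough UMIs for the fit against mesoderm, where 5 were higher in endoderm and 1, Gata6, was lower. Of all 10466 genes tested, 32.5% were higher and 30.3% lower. Against endothelium 7 entered the fit, with 5 higher (30.2% of 10160 genes) and 2, Sox17 and Sox7, lower (29.6%). Against erythroid cells 7 entered, with 7 higher (41% of 10852 genes) and 0 lower (36.1%), at fitted log2 differences from 3.76 for Sox7 to 5.76 for Foxa2. Hnf4a, Foxa2, Foxa3 and Sox17, with 14, 6, 1 and 8 UMIs in mesoderm, entered the first fit through their endoderm counts. Hnf4a, Foxa2, Foxa3 and Gata4, with 5, 4, 1 and 11 UMIs in endothelium, entered the second in the same way. Sox7 entered the second through its endothelium counts. Hnf4a, Foxa2, Foxa3, Gata6, Sox17 and Sox7, with 41, 15, 18, 33, 19 and 5 erythroid UMIs, entered the third through endoderm. Such factors had to differ once they entered, so these counts are a tally of single calls and say nothing about the list as a whole. The 3 comparisons share the endoderm cells. Every one of these directions and calls held under every alternative that gave a value, apart from the Gata6 call against endothelium.

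**Figure D2:**
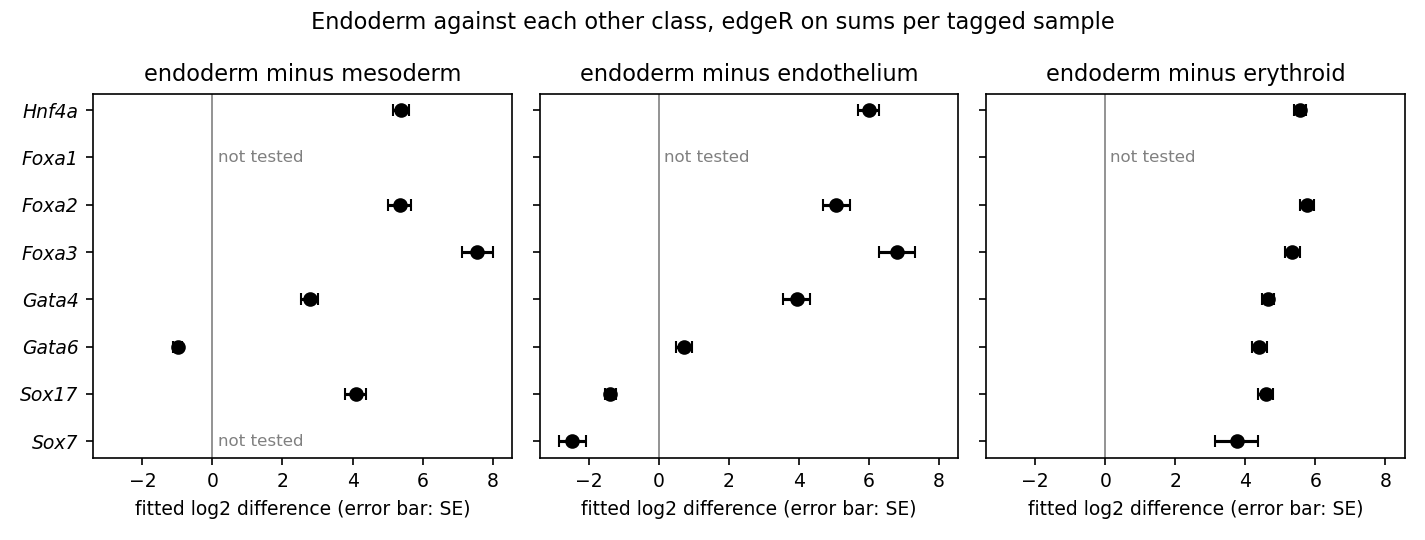
Fitted log2 difference (x axis) between endoderm and each of the other classes for each factor, with its standard error from the edgeR fit on sums of 3 tagged samples per class; every point shown passed the adjusted threshold of 0.05. Points to the left of 0 are Gata6 against mesoderm (−0.99) and Sox17 (−1.38) and Sox7 (−2.47) against endothelium.

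A direct comparison of endothelium and mesoderm could test 3 of the factors. Sox17 was higher in endothelium by 5.41 on the log2 scale (SE 0.30, edgeR adjusted p = 2.89e-08). Sox7 was also higher, at a pooled 116 times the mesoderm level (20.1 to 4646) that rests on 1 mesoderm UMI. Sox17 had 8 mesoderm UMIs, and both entered the fit through their endothelium counts, which set their direction. Gata6 was lower in endothelium (−1.72, SE 0.22, edgeR adjusted p = 4.27e-05). In that comparison 19.6% of 9092 genes were higher in endothelium and 16.2% lower. Gata4, with 45 UMIs in mesoderm and 11 in endothelium, was too low for the filter, and its pooled mesoderm level was 2.47 times that in endothelium (1.26 to 5.29). In tagged sample 1 the order was the reverse, at 4.09 CPM in mesoderm and 5.34 in endothelium. A single cell held 10 of the 45 mesoderm UMIs, and another held 5 of the 11 in endothelium.

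Free RNA from broken cells can give a few UMIs of an abundant transcript in any droplet. A reference of 8 abundant endoderm genes outside the gates, among them Afp, Apoa1 and Rbp4, showed what share of an endoderm level appeared elsewhere: 1.67% to 2.62% in mesoderm, 1.69% to 2.63% in endothelium and 1.41% to 2.09% in erythroid cells. Hnf4a stood at 2.80% of its endoderm level in mesoderm (1.53 to 4.72), 1.66% in endothelium (0.538 to 3.88) and 1.81% in erythroid cells. Foxa2 stood at 2.78%, 3.07% and 1.53%, and Foxa3 at 0.512%, 0.849% and 2.03%. The intervals of Hnf4a, Foxa2 and Foxa3 overlapped the reference range in all 3 classes. In erythroid cells Gata4 (3.41%), Gata6 (3.98%) and Sox17 (3.54%) all stood above the highest reference gene. Gata4 was also above the range in mesoderm, at 17.4% (12.6 to 23.5), and in endothelium, at 7.05% (3.51 to 12.7), where it rests on 11 UMIs with 5 of them in 1 cell. Sox17 in mesoderm, at 6.76% (2.90 to 13.4), rested on 8 UMIs in 8 cells, and was at 2.40% of its endothelium level (1.02 to 4.82). Gata6 in endothelium was at 65.2% of its endoderm level (50.4 to 83.4). The reference covers free RNA from endoderm only, while Gata6 was highest in mesoderm and Sox17 in endothelium. Pooled Gata6 was 58.3 times higher in mesoderm than in erythroid cells (40.9 to 85.8). Pooled Sox17 was 79.5 times higher in endothelium than in erythroid cells (49.6 to 135). Free RNA from sources other than endoderm was not tested.

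**Figure D3:**
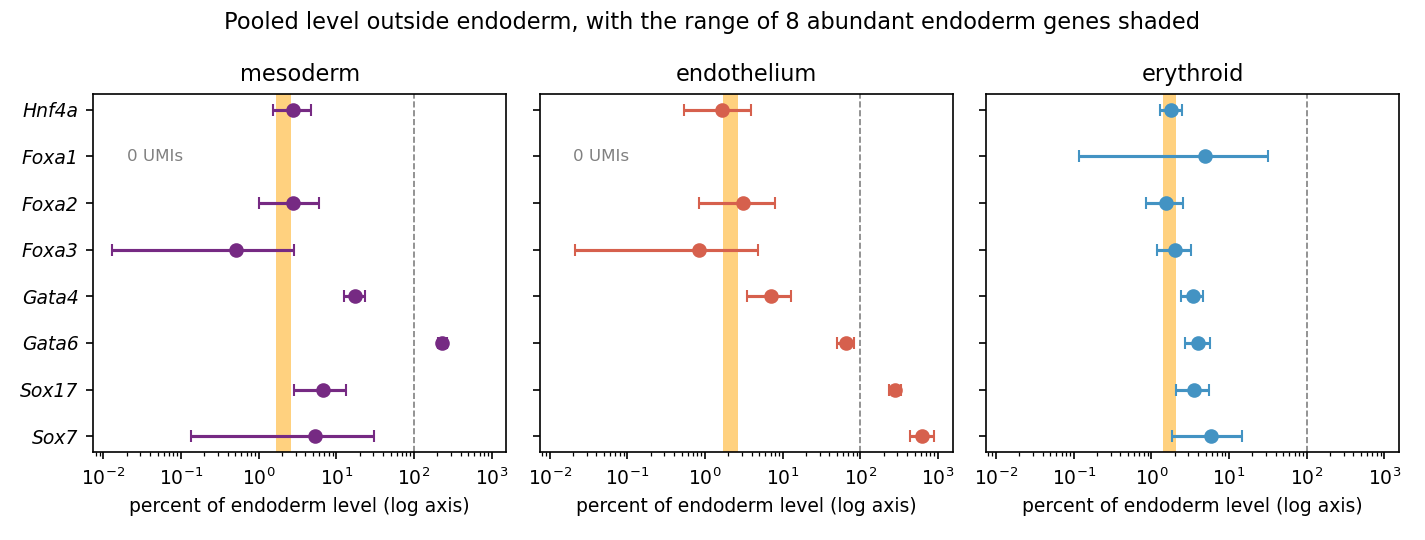
Pooled level of each factor in mesoderm, endothelium and erythroid cells as a percentage of its endoderm level (log x axis), with 95% exact intervals for counting error; the shaded band is the range of 8 abundant endoderm genes in that class and the dashed line marks 100%. Hnf4a, Foxa2 and Foxa3 sit at or beside the band, while Gata4 in mesoderm (17.4%), Gata6 in mesoderm (232%) and Sox17 and Sox7 in endothelium lie to its right.

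Genes that work with these factors were taken from fixed lists and counted in the endoderm and mesoderm comparison. Genes that entered that fit only through their endoderm counts had to come out higher, and those only through mesoderm counts lower. The counts are therefore tallies and test no list. In the endothelium and mesoderm comparison, without endoderm, 12 genes each of the Hnf4a-dependent, partner and uptake lists could be tested. Of 21 tested genes known to need Hnf4a, 20 were higher in endoderm and 1 lower, where 32.5% of all genes tested were higher and 30.3% lower, and the list median was 5.67 on the log2 scale against 0.02 over all genes. The 3 with the smallest p were Rbp4, the retinol carrier (6.10, SE 0.15), Fgb, a fibrinogen chain (6.02, SE 0.15) and Apoa1, the main protein of high-density lipoprotein (5.84, SE 0.15). The exception was Tdo2, which breaks down tryptophan and was lower in endoderm (−6.88, SE 0.27). Of 20 tested partner and upstream factors, 13 were higher and 1, Nr2f2, lower (median 1.28). Their leading genes were Creb3l3 (5.34), Maf (4.08) and Tbx3 (2.35). Against endothelium, Maf was lower in endoderm (−0.67, SE 0.11), as was Hhex (−4.44, SE 0.23), a homeobox factor of both endoderm and blood vessels.

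Other members of the same families were counted against the same background shares. Of 16 relatives tested against mesoderm, 3 were higher in endoderm and 8 lower (median −1.77), led by Sox11 (−4.55), Sox6 (−4.64) and Sox4 (−4.04). Against endothelium 1 of 15 was higher and 11 lower, Sox18 among them, where 30.2% and 29.6% of all genes were. Against erythroid cells 4 of 13 were higher and 5 lower (median 0.20), which is near the 41% and 36.1% of all genes. In that comparison Gata1, the GATA factor of red cells, was lower in endoderm (−4.69, SE 0.20). Of 17 uptake and signalling genes of visceral endoderm tested against mesoderm, 15 were higher, among them Slc2a2 (6.07), Ctsl (4.02) and Cubn (5.75), and Bmp2 was lower (−2.68). Of 11 basement membrane genes 3 were higher than in mesoderm, such as Col4a1 (0.92), and 4 lower, such as Lamc1 (−1.91) and Hspg2 (−1.86), which is near the shares of all genes. Against erythroid cells 10 of the 11 were higher and 0 lower. Here too, genes that entered a fit through their endoderm counts had to be higher. Those that entered only through the other class, such as Sox18, had to be lower. These counts and medians therefore test no list.

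Per cell, each class was compared after thinning every cell to 20000 UMIs, which left 372 endoderm cells (47 shallower ones left out). Hnf4a had a UMI in 88.4%, 72.4% and 70.5% of them in tagged samples 1, 2 and 3 (75.8% pooled), against 1.51% to 2.91% of erythroid cells. Gata4 was seen in 48.5% to 53.7%, Foxa2 in 41.1% to 48.97%, Foxa3 in 41.7% to 44.1%, Gata6 in 34.1% to 42.1% and Sox17 in 26.9% to 28.8%. In erythroid cells none of these 5 passed 2.43% in any tagged sample. Sox7 was seen in 1.52% to 9.47% of endoderm cells and Foxa1 in 1.34% pooled. Without thinning, at median depths of 53656 and 47771 UMIs in endoderm and erythroid cells, the Hnf4a shares were 89.3% and 5.88%. Gata6 was seen in 51.9%, 60.3% and 63.3% of mesoderm cells (172 in all). In 82 endothelial cells Sox17 was seen in 56.3%, 47.8% and 18.5%, Gata6 in 28.1%, 34.8% and 14.8%, and Sox7 in 34.4%, 21.7% and 3.70%. The endothelial shares thus spread widely, and those of tagged sample 3 were the lowest for all 3 factors, with Sox17 below its endoderm share there (28.8%) although its CPM was above.

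Most endoderm cells showed several of the factors at once. At 20000 UMIs, 10 of 372 cells showed none of the 8, the most frequent number was 3 (127 cells), and 3 cells showed 6. Some pairs were seen together about as often as the product of their shares gives, such as Hnf4a and Gata4 in 146 cells against 144 from the product, Foxa2 and Foxa3 in 70 against 71.0. Sox17 and Gata6 were seen together in 47 cells against 38.9, and Sox17 and Gata4 in 61 against 53.1, while Foxa2 and Sox17 were in 39 against 46.1 and Foxa3 and Gata6 in 52 against 59.8. These counts describe sparse data and carry no test.

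Variation inside the endoderm was followed by ranking its cells, within each tagged sample, on the share of UMIs from Spp2 and Apoa4, a pair of secreted protein genes. The highest-ranked and the lowest-ranked 39, 52 and 48 cells of the 3 tagged samples were compared. Median depths were 53836 to 62971.5 UMIs in the high cells and 38423 to 51449 in the low cells, and a list of 10 heart muscle markers summed to 3.59 to 6.86 and 8.84 to 149 CPM. The part of either in what follows was not tested. Sox17 was at 8.71, 17.4 and 11.8 CPM in the high cells and at 27.4, 17.4 and 28.2 in the low cells. It was lower in the high cells in 2 of 3 tagged samples and level in tagged sample 2, so the ranges met there. Its log2 difference of −0.81 (SE 0.26) did not pass the threshold (edgeR adjusted p = 0.250, range over the alternatives 0.0287 to 0.820). Hnf4a was at 92.2, 65.3 and 81.1 in the high cells and 67.9, 63.7 and 64.8 in the low cells (log2 difference 0.31, SE 0.14, edgeR adjusted p = 0.391). Gata4 was at 39.5, 36.1 and 28.2 against 56.9, 41.6 and 42.5 (−0.38, SE 0.17, edgeR adjusted p = 0.405), lower in the high cells of all 3 samples. Foxa2, Foxa3 and Gata6 differed by −0.04, 0.13 and −0.34, and Sox7 and Foxa1 had too few UMIs for the fit. None of the 6 factors tested was called, where 0.225% of 8905 genes were higher and 0.168% lower. At an unadjusted p under 0.05, 3 of the 6 would pass (Hnf4a, Gata4 and Sox17), and DESeq2 called 0. With the tagged sample as a block the calls over all genes went from 35 to 527, with still none of the 6 among them.

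**Figure D4:**
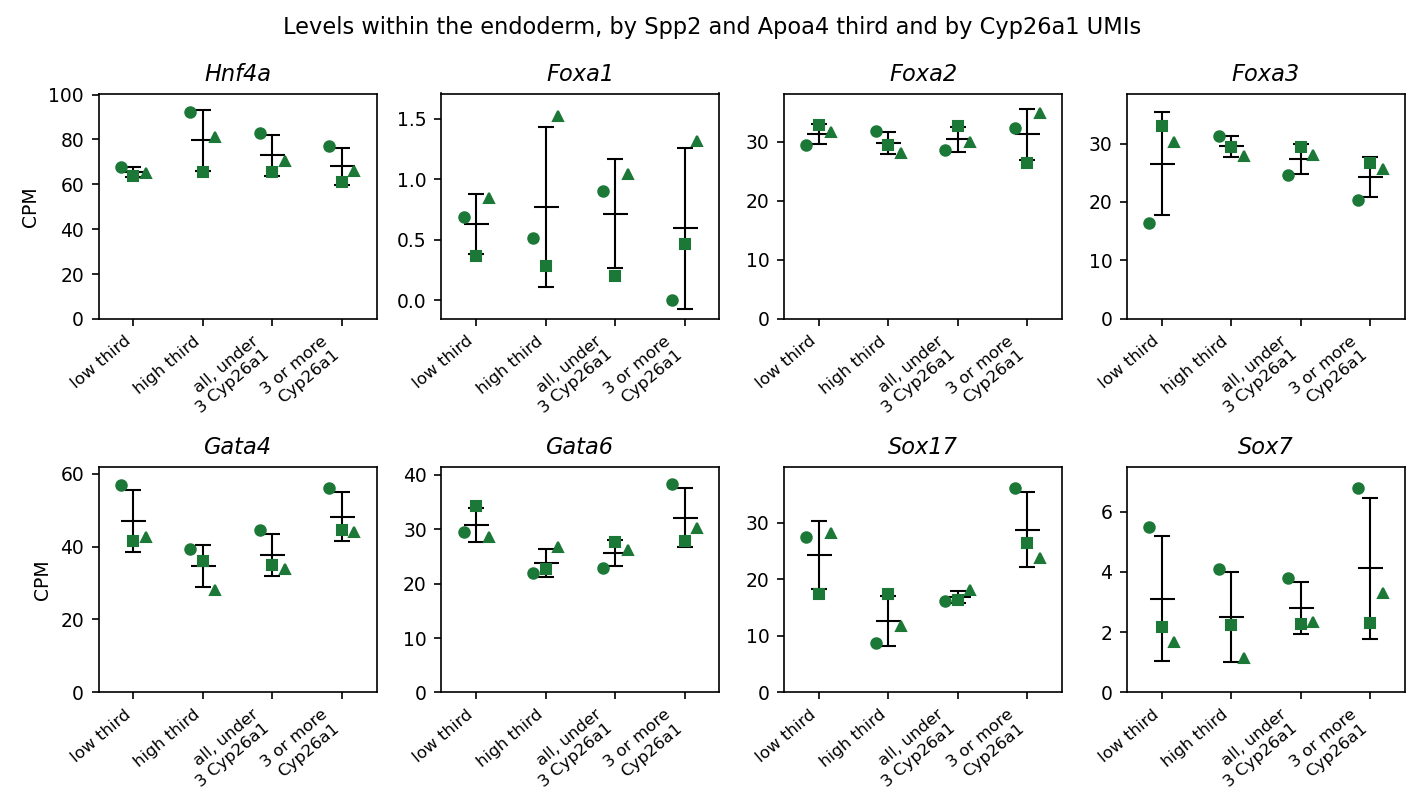
Level of each factor in CPM (y axis) in the lowest-ranked and highest-ranked endoderm cells by Spp2 and Apoa4, in all 419 endoderm cells with under 3 Cyp26a1 UMIs, and in the 140 with 3 or more; circles, squares and triangles are tagged samples 1, 2 and 3, black bars the mean and SD. Sox17 is at 23.7 to 36.2 in the Cyp26a1 cells against 16.1 to 18.1 in the rest.

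Of the 159 Cyp26a1 cells, 140 passed the endoderm gate and no other, and they were compared with the 419 endoderm cells, a comparison chosen after the levels had been seen. Median depths were 58688, 70103 and 59605 UMIs in the 140 cells and 48053.5, 61504 and 52149 in the 419. The doublet tool Scrublet called 8.81% of the 159 cells and 4.77% of the 419. The part of depth or doublets in what follows was not tested. Sox17 was at 36.2, 26.5 and 23.7 CPM in the Cyp26a1 endoderm cells, against 16.1, 16.4 and 18.1. It was higher in 3 of 3 tagged samples with no overlap. The difference, 0.80 on the log2 scale (SE 0.16), missed the threshold (edgeR adjusted p = 0.294, range over the alternatives 0.000298 to 0.9999). With the tagged sample as a block it was 0.79 and passed (edgeR adjusted p = 0.000578). Likewise, Gata4 was at 55.9, 44.7 and 44.1 against 44.4, 35.01 and 33.8, higher within each tagged sample (0.38, SE 0.13, edgeR adjusted p = 0.9999). Hnf4a was at 77.1, 61.0 and 65.8, which overlapped with the 65.3 to 82.9 of the other cells. Foxa2, Foxa3, Gata6 and Sox7 had log2 differences between −0.19 and 0.61. None of 7 factors tested was called, where 0.0403% of 9928 genes were higher and 0% lower (4 genes, and 110 with the block). At an unadjusted p under 0.05, Gata4 and Sox17 would pass, and DESeq2 called 0 of the 7. Parietal endoderm markers summed to between 952 and 976 CPM in the Cyp26a1 endoderm cells and 741 and 833 in the rest, with Thbd at 0 in the former. Endothelial markers summed to 50.9, 52.0 and 94.1 CPM in the Cyp26a1 endoderm cells of tagged samples 1, 2 and 3. In the rest they summed to 51.8, 32.4 and 41.5. The part of either list in the Sox17 difference was not tested.

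Among the cells of no class, 12 had 1% or more of their UMIs in parietal endoderm markers such as Lama1 and Sparc, a limit set after the values were seen (the next cell had 0.692%). Parietal endoderm lies against the trophoblast and lays down Reichert's membrane. Of the 12 cells, 11 came from tagged sample 2 and 1 from tagged sample 3, so these are values with no replicate check. Gata6 was at 486 CPM in the former and 481 in the latter, Sox17 at 236 and 370, and Gata4 at 147 and 204. Each of these 3 had a UMI in 12 of 12 cells. Foxa2 was seen in 7 cells and Sox7 in 10. Of the 22 Foxa2 UMIs, 8 came from the 1 cell of tagged sample 3. The 11 cells of tagged sample 2 held Foxa2 at 42.8 CPM (23.4 to 71.9), against a pooled 30.8 (28.6 to 33.1) in endoderm. Hnf4a had 2 UMIs in all, and Foxa1 and Foxa3 had 0, which allows up to 9.68 CPM. The other 166 cells of no class held each of the 8 factors at a pooled 5.75 CPM or less. In tagged sample 2 the 11 cells held 159 UMIs of Gata6, and the other 44 cells of no class held 20.

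**Figure D5:**
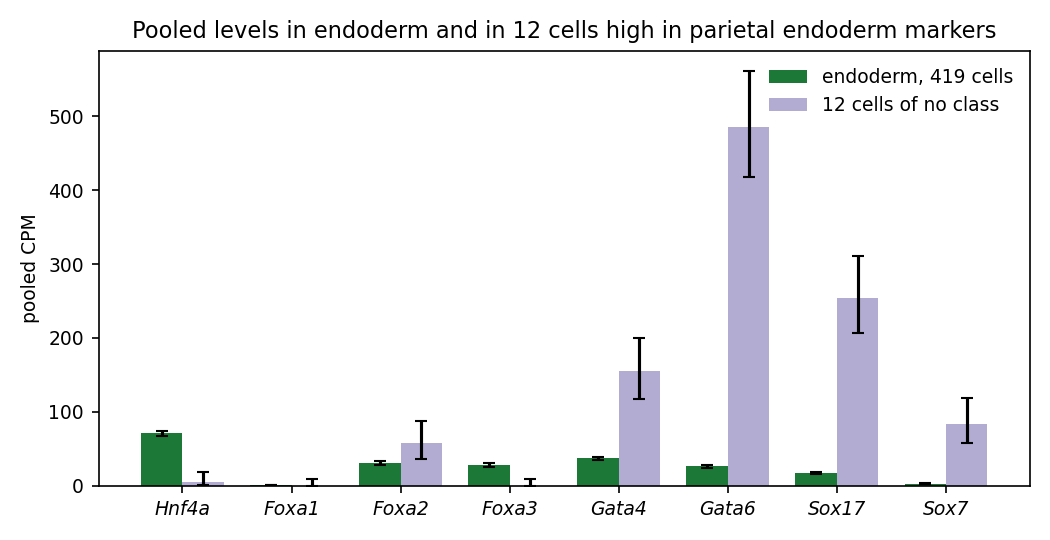
Pooled CPM (y axis, from 0) of each factor in the 419 endoderm cells and in the 12 cells of no class with 1% or more parietal endoderm marker UMIs; error bars are 95% exact intervals for counting error. The intervals lie apart for Gata6, Sox17, Gata4, Sox7 and Foxa2, which are higher in the 12 cells, and for Hnf4a and Foxa3, which are higher in endoderm. For Foxa2 this rests on the 1 cell of tagged sample 3. The 11 cells of tagged sample 2 were at 42.8 (23.4 to 71.9), an interval that holds that of endoderm (28.6 to 33.1).

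Genes whose pattern over the 12 sums of 4 classes and 3 tagged samples was most like each factor were listed by Pearson's r of log2(CPM + 1) among 6799 genes. For Hnf4a they were Acsl1 (r = 0.988), Shtn1 and Cubn, and for Foxa3 Lect2 (0.995), Serpinc1 and Atp6v0b. For Foxa2 they were Tspan13 (0.994), Espn and Ang, and for Gata4 Camsap3 (0.984), Epb41l3 and Dipk1a. Gata6 was most like Uaca (0.995), Hdlbp and Arid3b, whose levels were also highest in mesoderm. Sox17 was most like Skap2 (0.984), Maf and Fmo1, and Sox7 most like Slk (0.967), Vat1 and Prkch. These sums share libraries and depth within each tagged sample, and Foxa1 had too few UMIs to be ranked.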

How the data were processed

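Single-cell RNA-seq of the 3 tagged samples came as 1 gene expression library with 1 library of CellPlex tags. Unnormalized UMI counts for each gene and cell were deposited, made by the authors with Cell Ranger 6.1.2 per the file headers, on GRCm38 (mm10) per the submitters' processing notes. The 6 rows of tag counts were left out. Of the gene IDs, 30900 of 30970 matched GENCODE M21, which gave the positions. No barcode was shared between tagged samples.

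The 8 factors, the gates and the gene lists were chosen with earlier results of these data known. The named genes are the 8 factors in every comparison and, of each list, those with the smallest p, and others named were chosen after their values were seen. Cells with under 500 genes or over 10% mitochondrial UMIs (77) were dropped. Doublets were dropped only as cells past 2 gates (45), and removing the 89 calls of Scrublet (scanpy 1.11.5) among the kept cells was an alternative. Levels (CPM) divide a gene's UMIs by all gene UMIs of the class and tagged sample. The cells' UMI counts were added up within each class of a tagged sample and tested, two-sided, with edgeR 4.0.16 (quasi-likelihood, TMM, filterByExpr) in R 4.3.3, with Benjamini-Hochberg adjustment over all genes tested and a threshold of 0.05. DESeq2 1.42.0 was an alternative, beside library-size scaling, no low-count filter, the replicate block, other gates and cell filters, thinning, and leaving out each tagged sample. Same-numbered sums come from the same tagged sample, so the numbers pair them by source, and the main fits left this pairing out. Between the 4 classes their deviations from the class means correlated between -0.01 and 0.23 over 5216 genes. That correlation was not computed for the comparisons within the endoderm, where the replicate block raised the number of genes called, as given above. On simulated counts for endoderm and mesoderm (10138 genes) the fit recovered 82.1% of changes of 1 and 100% of changes of 2 on the log2 scale, with 5 false calls. In the other comparisons it recovered 72.0% to 84.1% of changes of 1, with 7 to 10 false calls. The simulation gave every gene the same fixed spread, drew the sums independently and changed only better-counted genes. It therefore says little about low-count factors or paired sums.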

Additional observations from a re-analysis of the deposited data

Results flagged for a closer look

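The 12 cells of no class with 1% or more parietal endoderm marker UMIs lie outside the comparisons. For 5 of the 8 factors the 95% exact interval of the pooled level lay wholly above that in the other 166 cells of no class. Pooled levels were 486 CPM for Gata6, 255 for Sox17, 155 for Gata4, 84.0 for Sox7 and 57.8 for Foxa2. In the other cells of no class they were 5.75, 5.22, 2.22, 0.522 and 2.35. Hnf4a was at 5.25 on 2 UMIs against 1.44, with overlapping intervals. Of 10 extraembryonic mesoderm markers 5 had a UMI in the 12 cells, led by Ahnak (80 UMIs), Pdgfra (54) and Pitx1 (18). Of 10 endothelial markers 3 had one, led by Egfl7 (5), and of 10 trophoblast markers 4 had one, led by Rhox6 (43). Visceral endoderm markers were seen as well, led by Apoa1 (66 UMIs) and Rbp4 (63), each in 12 of 12 cells. Primitive erythroid markers were led by Blvrb (58 UMIs in 12 cells) and Car2 (20 in 8 cells). The part of other cell types in these levels was not tested. The difference between the cells was not tested, since 11 of the 12 cells came from 1 tagged sample.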

How the results depend on the processing

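Of the alternatives for log2 differences of the 8 factors, 520 kept direction and side of the threshold, 12 reversed, 4 newly passed and 3 no longer passed. The replicate block moved no call of a factor between the 4 classes. Between high- and low-ranked endoderm cells, 35 genes were called, against 527 with the replicate block, 55 with DESeq2, 358 without the low-count filter, 11 after thinning, 7 without Scrublet calls, 0 with the ranking cut in 2, and 0 to 228 leaving out 1 tagged sample. Of the factors, 0 were called, and 1, Sox17, without the low-count filter (edgeR adjusted p = 0.0287). Foxa2 (-0.044) turned to 0.0772 after thinning, 0.0583 with a stricter cell filter and 0.0185 with the ranking cut in 2, and ran from -0.114 to 0.01997 leaving out 1 tagged sample, while Foxa3 (0.13) ran from -0.096 to 0.334. For the Cyp26a1 endoderm cells, whose alternatives were chosen after seeing the data, 4 genes were called, against 110 with the replicate block, 11 with DESeq2, 101 without the low-count filter, 19 with all Cyp26a1 cells, 10 against cells with 0 Cyp26a1 UMIs, and 1 to 26 leaving out 1 tagged sample. Of the factors, 0 were called, and 1, Sox17, with the block, without the filter and with all Cyp26a1 cells. The last of these settings adds 19 cells that did not pass the endoderm gate alone. In all Cyp26a1 cells parietal endoderm markers summed to 1034 to 2011 CPM, against 952 to 976 in the Cyp26a1 endoderm cells. Endothelial markers summed to 51.7 to 164 CPM in all Cyp26a1 cells, against 50.9 to 94.1. The part of other cell types in that call was not tested. Foxa2 (-0.00034) turned to 0.0065 with DESeq2, 0.0011 with library-size scaling, 0.236 after thinning, 0.0415 with the stricter cell filter, 0.0019 with 20000 UMIs or more, and 0.0022 against cells with 0 Cyp26a1 UMIs, and ran from -0.126 to 0.20 leaving out 1 tagged sample. The cause of these changes was not tested. Scaling by library size shifted the all-gene median by -0.22, 0.26, -0.14 and -0.08 and the split of higher to lower calls to 2600 and 4286 (from 3397 and 3174) against mesoderm, 5107 and 3033 (from 4454 and 3914) against erythroid cells, and 1429 and 2005 (from 1779 and 1475) between endothelium and mesoderm, with no factor changing direction. The planned comparison of contractile-gene mesoderm cells was not run, since the tagged samples held 1, 1 and 2 such cells. Depth limits Foxa1 everywhere and Sox7 outside endothelium.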
